A study of Homo sapiens with 20 samples.

Results

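The genes described here are 57 genes of mitosis and of the passage from G2 into M phase, chosen by name from a list of known cell division genes. All 57 were present among the 23368 genes of the count files. Their messenger RNA was measured by poly(A) RNA sequencing in Panc1 cells, a line from a human pancreatic ductal carcinoma, and in A549 cells, a line from a human lung adenocarcinoma. There were 4 conditions in each line: control siRNA (siCont), TGFβ (TGFb), siRNA against the transcription factor KLF10 (siKLF10), and that siRNA with TGFβ (siKLF10+TGFb). The TGFβ dose was 5 ng/ml and the exposure 72 h. Panc1 had 3 libraries per condition (A, B and C) and A549 had 2 (A and B), 20 in all. The titles of the TGFb libraries do not say whether control siRNA was also given. The labels list both lines as immortalized with the SV40 large T antigen, although both are known as lines grown from tumours. Nothing in them says that libraries of a group were grown as separate cultures, so the p-values below speak of the spread among libraries, which may be technical. The question put by the study was how KLF10 modifies the response of the 2 lines to TGFβ.

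Entry into mitosis is driven by CDK1 bound to cyclin B, which CDC25 phosphatases switch on and the Aurora and Polo-like kinases extend to the centrosomes and chromosomes. Kinetochore proteins then attach chromosomes to the spindle under the watch of the spindle checkpoint, until the anaphase-promoting complex with CDC20 destroys cyclin B and securin. Transcripts of these genes rise together as a cell nears division, through the MuvB complex with MYBL2 and FOXM1, and are held down by the DREAM complex in resting cells. TGFβ is known as an inhibitor of epithelial cell growth, a response that many carcinoma lines have lost. In bulk RNA, fewer cells in G2 and M phase and less of each transcript per cell cannot be told apart.

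Promoter letters were looked up for the genes, since cell cycle promoters are known for the cell cycle genes homology region, whose core letters are TTTGAA, and for the NF-Y box CCAAT. RefSeq sequence of the GRCh38.p14 build was found for 49 of the 57 genes. The windows of 5 of them are shown, from 250 bases before the start of transcription up to it, because these 5 genes carry much of the account that follows. Capitals mark TTTGAA and CCAAT on either strand (TTCAAA and ATTGG on the printed strand). The windows lie at chr5:69166900-69167149 for CCNB1, chr15:59104896-59105145 for CCNB2, chr10:60778228-60778477 for CDK1, chr16:23678639-23678888 for PLK1 and chr1:43358731-43358980 for CDC20, all on the plus strand.
CCNB1: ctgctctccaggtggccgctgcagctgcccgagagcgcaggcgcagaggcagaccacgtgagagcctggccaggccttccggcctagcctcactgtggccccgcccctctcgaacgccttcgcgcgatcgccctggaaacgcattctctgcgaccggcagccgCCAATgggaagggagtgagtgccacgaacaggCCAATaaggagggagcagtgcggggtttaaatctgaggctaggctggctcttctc
CCNB2: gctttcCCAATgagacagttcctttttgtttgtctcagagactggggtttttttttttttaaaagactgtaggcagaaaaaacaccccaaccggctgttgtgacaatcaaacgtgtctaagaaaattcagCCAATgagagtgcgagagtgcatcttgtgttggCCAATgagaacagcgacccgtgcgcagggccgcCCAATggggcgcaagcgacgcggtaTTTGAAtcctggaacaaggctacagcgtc
CDK1: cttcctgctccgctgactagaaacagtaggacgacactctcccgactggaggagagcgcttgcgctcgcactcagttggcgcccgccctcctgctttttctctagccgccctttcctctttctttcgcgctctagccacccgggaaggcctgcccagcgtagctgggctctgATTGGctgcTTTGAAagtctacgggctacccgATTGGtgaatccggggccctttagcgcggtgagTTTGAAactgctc
PLK1: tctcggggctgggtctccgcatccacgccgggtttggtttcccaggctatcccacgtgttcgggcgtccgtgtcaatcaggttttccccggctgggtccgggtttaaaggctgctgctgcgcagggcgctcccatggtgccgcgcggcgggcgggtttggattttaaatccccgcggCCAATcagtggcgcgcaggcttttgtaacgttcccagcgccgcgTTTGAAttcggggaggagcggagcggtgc
CDC20: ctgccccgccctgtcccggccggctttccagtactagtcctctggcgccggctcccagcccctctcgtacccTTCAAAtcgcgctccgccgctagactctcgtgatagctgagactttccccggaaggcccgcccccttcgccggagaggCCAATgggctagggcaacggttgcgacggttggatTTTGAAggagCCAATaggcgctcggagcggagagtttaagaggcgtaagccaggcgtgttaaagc
CCNB2 held 1 TTTGAA and 4 CCAAT, CDK1 2 and 2, PLK1 1 and 1, and CDC20 2 and 2. CCNB1 held 2 CCAAT and no TTTGAA. CDK1 had 2 windows, and the one shown was picked by its number of these matches. In windows that also took in the 50 bases after the start, TTTGAA was present for 35 of the 49 genes (71.4%), beside 18.2% of all 27305 genes of the table. CCAAT was present for 38 (77.6%, beside 39.7%), and both were present for 28 (57.1%, beside 8.37%). CENPE, KIF2C, CKAP2 and MELK held neither. A match describes letters and is no measure of binding. No entry was found for AURKA, BUB3, TTK, TPX2, UBE2C, BIRC5, RACGAP1 and FOXM1.

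Counts assigned to genes came to 11152625 to 15571367 per Panc1 library and 6846761 to 19070551 per A549 library. The lowest count of any of the 57 genes in any library was 330 in Panc1 and 95 in A549, so none was near the limit of detection. All 57 passed the filter on low counts in both lines. The 6 epithelial markers summed to 446 to 1020 CPM (counts scaled to library size) per Panc1 library and 4730 to 7430 per A549 library. The single markers were uneven. In Panc1 EPCAM averaged 2.23 to 7.41 CPM over the groups, KRT7 4.86 to 16.3 and CDH1 2.07 to 15.2. In A549 KRT19 averaged 1.97 to 3.03. Acinar and endocrine pancreas markers summed to at most 0.152 CPM in Panc1 and lung markers to at most 1.02 CPM in A549. These differentiated cell types' markers were thus near 0. Of the duct markers, SOX9 measured 203 to 254 CPM in Panc1, while CFTR was at most 0.0834 CPM there. Of the fibroblast list COL1A1, a collagen gene known to respond to TGFβ, averaged 155 CPM in Panc1 siCont and 1900 in TGFb, and 6.26 and 170 in A549, while its partner chain COL1A2 was at most 0.162 CPM in Panc1 and 0.327 in A549. KRT5, a basal keratin, measured 61.6, 22.1 and 22.7 CPM in Panc1 siCont, with library A apart, and 5.39 to 9.67 in the other Panc1 libraries. Of the same list, KRT14 was at most 0.159 CPM in Panc1 and TP63 measured 0.61 to 5.46. EPCAM was also highest on average in siCont there, at 3.98 to 12.4 CPM beside 1.9 to 4.27 in the other groups. KLF10, the siRNA's target, measured 142, 139 and 132 CPM in Panc1 siCont, 195, 187 and 208 in TGFb, 80.8, 81.1 and 77.9 in siKLF10 and 102, 99.8 and 103 in siKLF10+TGFb. In A549 it measured 109 and 106, 179 and 178, 99.8 and 106, and 151 and 143 CPM in the same order. Every adjusted p here comes from edgeR's quasi-likelihood F test (Benjamini-Hochberg). By it KLF10 differed between siKLF10 and siCont by -0.76 on the log2 scale in Panc1 (adjusted p = 2.58e-09), and by -0.94 under TGFβ (adjusted p = 4.97e-11). In A549 the difference was -0.05 without TGFβ (adjusted p = 0.743) and -0.29 under TGFβ (adjusted p = 0.00776). KLF10 RNA thus gives no check of the A549 siKLF10 label without TGFβ. Under TGFβ the check is weak: the fall was 1.22-fold, and both siKLF10+TGFb libraries stayed above both siCont libraries. Every direction drawn from the A549 siKLF10 and siKLF10+TGFb libraries is that of the libraries so labelled.

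A pair of patterns ran through the 57 genes. In Panc1 the siKLF10 libraries had the lowest mean of the 4 conditions for 48 of the 57, and the siKLF10+TGFb libraries for 0. In A549 the siKLF10+TGFb libraries had the lowest mean for 53 of the 57. TGFβ after siKLF10 therefore went with higher levels in Panc1 and lower levels in A549, as the heat map of the genes shows.

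**Figure D1:**
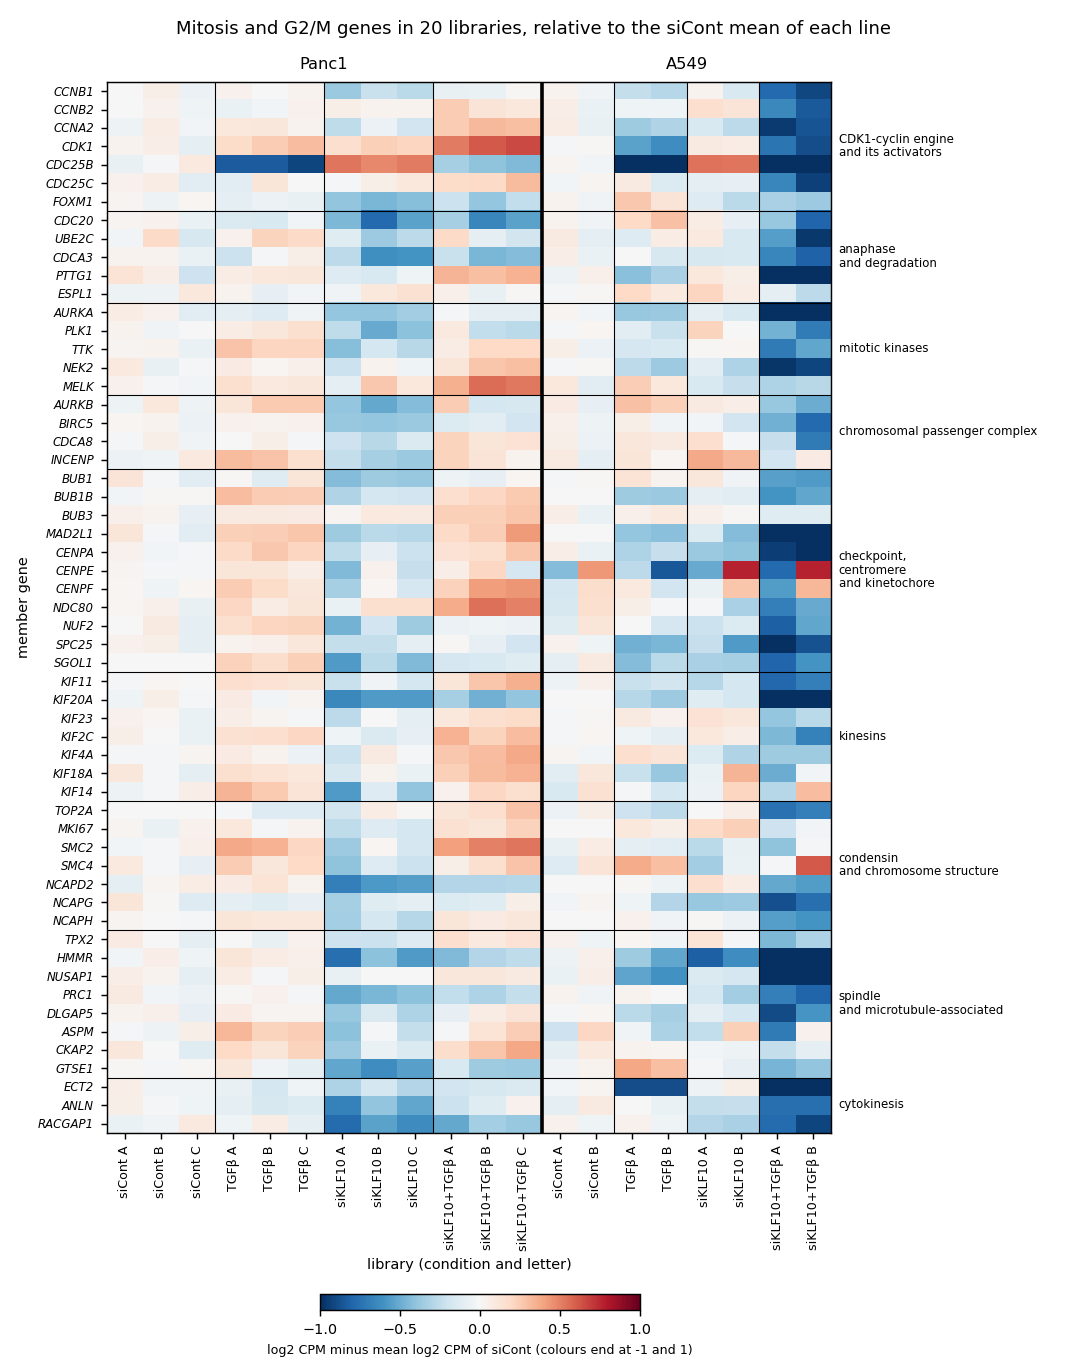
Each line is 1 of the 57 genes, ordered by role, and each column 1 of the 20 libraries. Colour gives log2 CPM minus the mean of the siCont libraries of the same line, and colours end at -1 and 1. The Panc1 siKLF10 columns are mostly blue and the A549 siKLF10+TGFb columns are mostly dark blue, while CDC25B is blue in the TGFb columns of both lines.

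The engine of mitotic entry was read in the cyclins, CDK1, its phosphatases and FOXM1. Values are CPM scaled over all 20 libraries, in the order of the letters. CCNB1, the main mitotic cyclin, measured 313, 326 and 300 CPM in Panc1 siCont, 323, 313 and 321 in TGFb, 242, 268 and 259 in siKLF10 and 297, 298 and 315 in siKLF10+TGFb. In A549 it was 290 and 275 in siCont, 239 and 232 in TGFb, 289 and 254 in siKLF10 and 165 and 150 in siKLF10+TGFb. The 3 Panc1 siKLF10 libraries were below the other 9, and the 2 A549 siKLF10+TGFb libraries were below the other 6. CCNB2, the second B-type cyclin, measured 91.5, 94.6 and 88.9 CPM in Panc1 siCont, 87.3, 89.8 and 94.2 in TGFb, 95.2, 93.8 and 94 in siKLF10 and 109, 100 and 98.4 in siKLF10+TGFb. Its A549 values were 108 and 98.6, 100 and 100, 116 and 113, and 66 and 57.7 CPM in the same order. The combined treatment thus gave the highest libraries of Panc1 and the lowest of A549. CCNA2, cyclin A, which acts from S phase into early mitosis, measured 135, 147 and 137 CPM in Panc1 siCont, 150, 151 and 143 in TGFb, 117, 134 and 122 in siKLF10 and 166, 175 and 172 in siKLF10+TGFb. A549 libraries had 103 and 92.9, 76.4 and 79.4, 87.9 and 81.8, and 50.5 and 53.9 CPM. Again siKLF10+TGFb stood above all other Panc1 libraries and below all other A549 libraries.

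CDK1, the kinase itself, measured 180, 184 and 165 CPM in Panc1 siCont, 200, 210 and 218 in TGFb, 198, 208 and 204 in siKLF10 and 252, 269 and 278 in siKLF10+TGFb. Its A549 values were 145 and 147, 101 and 95, 155 and 154, and 88 and 79.1 CPM. In Panc1 either treatment was above siCont and the combination was highest; in A549 both TGFβ groups were below both groups without it. CDC25B, a phosphatase that activates CDK1 early in mitotic entry, measured 148, 154 and 167 CPM in Panc1 siCont, 87.6, 87.7 and 82.5 in TGFb, 226, 218 and 224 in siKLF10 and 124, 118 and 115 in siKLF10+TGFb. In the A549 libraries the values were 263 and 252, 103 and 101, 375 and 374, and 92.6 and 87.2 CPM. No 2 groups of a line overlapped, and in both lines siKLF10 was highest and the groups given TGFβ lowest. No other of the 57 genes had both TGFβ group means below siCont and the siKLF10 mean above it in both lines. FOXM1, the transcription factor of late cell cycle genes, measured 199, 188 and 198 CPM in Panc1 siCont, 182, 187 and 185 in TGFb, 148, 142 and 145 in siKLF10 and 168, 149 and 164 in siKLF10+TGFb. For A549 the values were 112 and 107, 132 and 120, 100 and 90.6, and 87.4 and 85.1 CPM. Neither line had overlapping FOXM1 groups: siKLF10 was lowest in Panc1, and TGFb was highest and siKLF10+TGFb lowest in A549.

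Among the mitotic kinases, PLK1, the Polo-like kinase of centrosome maturation and mitotic exit, measured 219, 209 and 213 CPM in Panc1 siCont, 225, 231 and 239 in TGFb, 179, 151 and 161 in siKLF10 and 229, 180 and 177 in siKLF10+TGFb. In A549 it measured 135 and 138, 127 and 117, 159 and 137, and 98.3 and 84 CPM. The siKLF10+TGFb library A of Panc1 was high against B and C, and reached the range of the TGFb libraries. AURKA, the Aurora kinase of spindle poles, measured 222, 218 and 195 CPM in Panc1 siCont, 197, 193 and 206 in TGFb, 162, 161 and 166 in siKLF10 and 210, 199 and 197 in siKLF10+TGFb. A549 libraries had 128 and 123, 96.3 and 96.8, 118 and 113, and 57.7 and 61.9 CPM. In Panc1 siKLF10 lay below 3 overlapping groups, and in A549 the 4 groups were separate, with siKLF10+TGFb lowest. AURKB, the Aurora kinase of the chromosomal passenger complex at centromeres and midbody, measured 56.5, 62.9 and 56.6 CPM in Panc1 siCont, 63.6, 70.2 and 70.1 in TGFb, 44.8, 41.2 and 43.4 in siKLF10 and 69.8, 51.8 and 52.4 in siKLF10+TGFb. Its A549 values were 61.1 and 54.8, 71 and 68.3, 61.5 and 60.6, and 44.6 and 41.1 CPM. TGFb was thus the highest and siKLF10+TGFb the lowest group of A549.

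For the checkpoint and anaphase, CDC20, the activator of the anaphase-promoting complex, measured 193, 196 and 181 CPM in Panc1 siCont, 172, 171 and 186 in TGFb, 139, 111 and 131 in siKLF10 and 151, 121 and 131 in siKLF10+TGFb. In the A549 libraries the values were 86 and 81.8, 96.3 and 103, 88.4 and 79.4, and 64.6 and 48.5 CPM. In Panc1 both siKLF10 groups were below both others, with or without TGFβ, whereas in A549 only the combination was below the rest. BUB1, a checkpoint kinase at kinetochores, measured 468, 426 and 396 CPM in Panc1 siCont, 433, 394 and 466 in TGFb, 317, 336 and 330 in siKLF10 and 415, 406 and 436 in siKLF10+TGFb. For A549 the values were 119 and 121, 132 and 123, 130 and 117, and 82.5 and 80.9 CPM. A single group stood below the others in each line, siKLF10 in Panc1 and siKLF10+TGFb in A549. CENPF, a kinetochore and nuclear matrix protein, measured 1090, 1040 and 1090 CPM in Panc1 siCont, 1280, 1220 and 1160 in TGFb, 851, 1090 and 955 in siKLF10 and 1260, 1430 and 1460 in siKLF10+TGFb. In A549 it measured 206 and 262, 249 and 204, 222 and 282, and 158 and 292 CPM. All A549 groups overlapped, and the siKLF10+TGFb libraries held both the lowest and the highest of the 8 values.

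KIF20A, a kinesin of the central spindle and cytokinesis, measured 200, 215 and 204 CPM in Panc1 siCont, 218, 202 and 210 in TGFb, 132, 139 and 139 in siKLF10 and 164, 148 and 157 in siKLF10+TGFb. A549 libraries had 96.9 and 96.1, 79.3 and 75.1, 88.6 and 85.2, and 46.1 and 34.4 CPM. In Panc1 only siCont and TGFb overlapped, and in A549 no groups did. TOP2A, the topoisomerase that untangles sister chromatids, measured 988, 989 and 982 CPM in Panc1 siCont, 980, 902 and 900 in TGFb, 868, 1040 and 993 in siKLF10 and 1070, 1110 and 1200 in siKLF10+TGFb. Its A549 values were 788 and 854, 709 and 685, 816 and 861, and 488 and 510 CPM. The combination was the highest group in Panc1 and the lowest in A549. MKI67, which coats mitotic chromosomes and is the Ki-67 marker of cycling cells, measured 2650, 2480 and 2680 CPM in Panc1 siCont, 2800, 2570 and 2670 in TGFb, 2180, 2380 and 2300 in siKLF10 and 2890, 2830 and 3050 in siKLF10+TGFb. In the A549 libraries the values were 399 and 400, 429 and 415, 456 and 470, and 347 and 393 CPM. In Panc1 siKLF10 was the lowest and the combination the highest group, and in A549 siKLF10 was the highest and the combination the lowest.

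**Figure D2:**
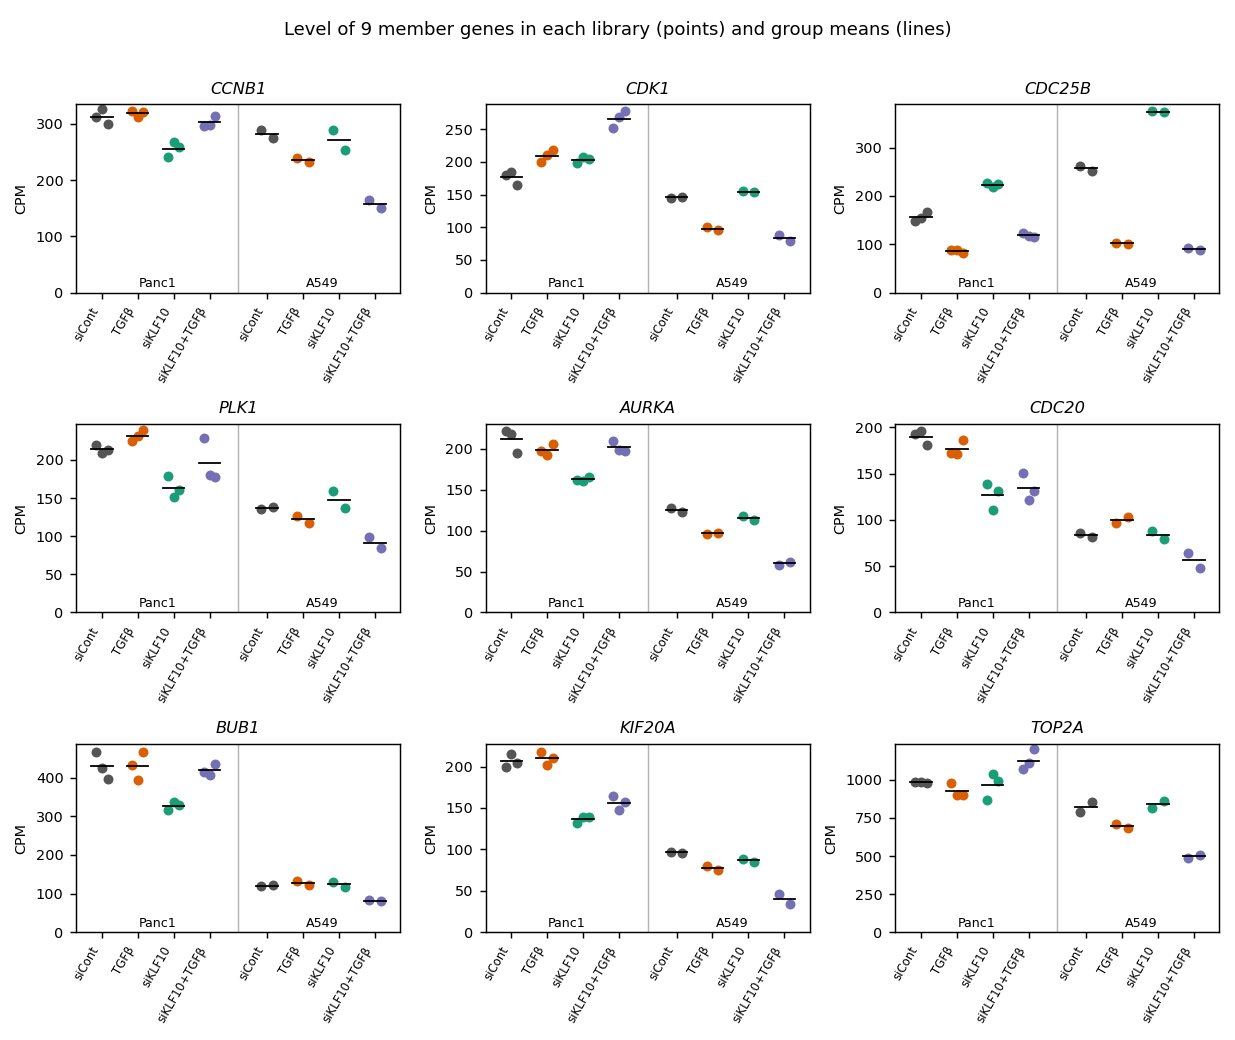
Points give CPM in each library and lines the group means, for CCNB1, CDK1, CDC25B, PLK1, AURKA, CDC20, BUB1, KIF20A and TOP2A, with Panc1 on the left and A549 on the right of each panel and axes from 0. For KIF20A the A549 siKLF10+TGFb libraries lie at 46.1 and 34.4 CPM, below the other 6, and the Panc1 siKLF10 libraries lie at 132 to 139 CPM, below the other 9.

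TGFβ without siKLF10 moved few of the genes in Panc1. Of the 57 genes 13 (22.8%) were called higher at an adjusted p under 0.05, beside 14% of the 13218 genes tested, and 1 (1.75%) lower, beside 15.1%. The median log2 fold change was 0.09. SMC2, a condensin subunit, rose by 0.32 ± 0.07 (SE), BUB1B, the checkpoint protein BubR1, by 0.28 ± 0.05, INCENP, the scaffold of the passenger complex, by 0.26 ± 0.07 and CDK1 by 0.26 ± 0.06, with adjusted p of 0.00199, 0.000386, 0.00515 and 0.00222. ASPM, a spindle pole protein, and MAD2L1, the checkpoint protein Mad2, were called with 0.27 ± 0.08 and 0.26 ± 0.07. Without siCont library B or TGFb library A the adjusted p of ASPM reached 0.0552, and without siCont library C that of MAD2L1 was 0.0607. The 1 gene that fell was CDC25B, by 0.86 ± 0.06 on the log2 scale or 1.81-fold (adjusted p = 2.05e-10). Of 11 checkpoint, centromere and kinetochore genes 5 rose, and of the 3 cytokinesis genes none was called. Without siCont library B, and likewise without siCont library C, 8 of the 57 were called higher. Without siCont A, the library highest in KRT5, 12 were.

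The siKLF10 libraries of Panc1 were lower than siCont for many of the genes. Here 30 of the 57 (52.6%) were called lower, beside 18.3% of all genes tested, and 2 (3.51%) higher, beside 17.3%, with a median of -0.19. KRT5 was also higher in siCont (22.1 to 61.6 CPM) than in siKLF10 (5.83 to 6.32), and its part in the result was not tested. Without siCont A, the library highest in KRT5, 27 of the 57 were called lower. RACGAP1, a protein of cytokinesis, fell by 0.61 ± 0.07 (adjusted p = 6.22e-07), NCAPD2, a condensin subunit, by 0.57 ± 0.06 (1.43e-07) and KIF20A by 0.57 ± 0.06 (9.88e-08). CDC20 fell by 0.55 ± 0.08 (2.44e-05), HMMR, a spindle and hyaluronan-binding protein, by 0.54 ± 0.07 (3.42e-06) and GTSE1, a microtubule protein of G2, by 0.53 ± 0.07 (8.3e-06). The 2 that rose were CDC25B, by 0.54 ± 0.06 (adjusted p = 4.25e-07), and CDK1, by 0.24 ± 0.06 (0.00453). All 4 passenger complex genes and all 3 cytokinesis genes fell, as did 5 of 8 spindle genes, while only 2 of 7 kinesins did. Of the 15 genes given in every library, CCNB1, FOXM1, PLK1, AURKA, AURKB, CDC20, BUB1, KIF20A and MKI67 fell, and CCNB2, CCNA2, CENPF and TOP2A were not called, at 0.07, -0.14, -0.12 and -0.00. The call of MKI67, at -0.16, was lost without any one of siCont A or C and siKLF10 A or C, with an adjusted p of up to 0.236 over the alternatives.

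Under TGFβ, the same comparison in Panc1 split the genes. Between siKLF10+TGFb and TGFb 17 of the 57 (29.8%) were called higher, beside 21.1% of all genes tested, and 13 (22.8%) lower, beside 20.6%, so the shares were near those of all genes and the median was 0.01. Of the 7 engine genes 5 rose, among them CDC25B by 0.48 ± 0.06 (adjusted p = 2.56e-06), CDK1 by 0.36 ± 0.06 (7.05e-05) and CCNA2 by 0.22 ± 0.06 (0.00607). MELK, a kinase of proliferating cells, rose by 0.37 ± 0.07, NDC80, a microtubule-binding kinetochore protein, by 0.36 ± 0.07, KIF4A, a chromosome-borne kinesin, by 0.31 ± 0.06, and TOP2A by 0.30 ± 0.06, with adjusted p of 0.00074 or less. KIF20A fell by 0.41 ± 0.06 (adjusted p = 5.6e-06), HMMR by 0.40 ± 0.07, CDC20 by 0.38 ± 0.08, RACGAP1 by 0.38 ± 0.07, NCAPD2 by 0.37 ± 0.06 and SGOL1, the shugoshin that protects centromere cohesion, by 0.35 ± 0.06 (0.000101). Calls of CCNB2 (0.20), PLK1 (-0.23), CENPF (0.20) and FOXM1 (-0.19) depended on single libraries. CCNB2 was lost without TGFb A (adjusted p = 0.0888), FOXM1 without TGFb B or siKLF10+TGFb B (up to 0.108), and PLK1 and CENPF without any one of libraries B and C of either group (up to 0.123 and 0.161). The count of higher genes was 10 without TGFb A or without siKLF10+TGFb C, and 11 without TGFb C. With offsets for transcript length and GC content the lower count was 21.

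In Panc1 cells given siKLF10, TGFβ raised most of the genes. Against siKLF10 alone, 44 of the 57 (77.2%) were called higher in siKLF10+TGFb, beside 22.6% of all genes tested, and 1 (1.75%) lower, beside 22.3%. The median was 0.30, beside -0.01 over all genes tested. Of the 57 differences 55 were positive, a count not made over all genes. SMC2 rose by 0.64 ± 0.07 or 1.56-fold (adjusted p = 2.62e-07), MAD2L1 by 0.59 ± 0.08 (1.52e-06), CENPF by 0.51 ± 0.07 (6.46e-06), KIF14, a kinesin of the midbody, by 0.48 ± 0.08 (6.73e-05), CKAP2, a spindle protein, by 0.46 ± 0.07 (2.02e-05) and CCNA2 by 0.45 ± 0.06 (2.82e-06). All 7 kinesins, all 5 mitotic kinases and all 4 passenger complex genes rose, and 9 of 11 checkpoint, centromere and kinetochore genes. In the anaphase and degradation group only PTTG1, securin, rose of 5 genes, by 0.43 ± 0.07, and CDC20 was not called, at 0.07 (adjusted p = 0.51). CDC25B fell, by 0.91 ± 0.06 or 1.88-fold (adjusted p = 3.32e-11). The call of PLK1 (0.25) was lost without any one of siKLF10 B or C and siKLF10+TGFb A (adjusted p of up to 0.137), and that of TOP2A (0.22) without siKLF10 A or siKLF10+TGFb C (up to 0.125). With libraries scaled to total counts alone, the median of all genes shifted to -0.11 and that of the 57 genes was 0.21.

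A test of the difference between the TGFβ response with siKLF10 and that without it, the interaction, called 8 of the 57 Panc1 genes higher (14%), beside 2.56% of all genes tested, and 0 lower, beside 1.86%. No gene had a lower interaction at an unadjusted p under 0.05 either, and DESeq2 called 0 lower. Of the 57 interactions 55 were positive, with a median of 0.20, beside a median of -0.01 over all genes tested. ANLN, anillin of the contractile ring, had 0.55 ± 0.10 (adjusted p = 0.00161): its TGFβ response was -0.12 without siKLF10 and 0.43 with it. AURKA had 0.39 ± 0.08 (adjusted p = 0.00854), with responses of -0.08 and 0.30. CCNA2 had 0.36 ± 0.09 (adjusted p = 0.0164) and CDCA8, borealin of the passenger complex, 0.34 ± 0.09 (0.0205). Leaving out single libraries took the adjusted p of CCNA2 to 0.0839 (siCont B, TGFb C, siKLF10 C or siKLF10+TGFb B) and of CDCA8 to 0.071 (siCont B, TGFb A or TGFb C). BUB1 (0.34) and MKI67 (0.29), also called, were lost without any one of most libraries, with adjusted p of up to 0.153 and 0.129: for both genes siCont A, TGFb A or B, siKLF10 A or C and siKLF10+TGFb B or C were among these. The count was 3 to 5 without any one of siCont A or B, TGFb A, B or C, siKLF10 A or C and siKLF10+TGFb B or C, and 19 without siKLF10+TGFb A. It was 2 with scaling to total counts and 21 with offsets for transcript length and GC content.

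In A549, TGFβ without siKLF10 lowered 19 of the 57 genes (33.3%), beside 23.5% of the 14124 genes tested, and raised 2 (3.51%), beside 24.2%. The median was -0.09. CDC25B fell by 1.34 ± 0.08 or 2.54-fold (adjusted p = 2.34e-12), ECT2, a protein of cytokinesis, by 0.89 ± 0.08 (4.09e-09), NUSAP1, a spindle-binding protein, by 0.58 ± 0.08 (4.5e-06) and CDK1 by 0.58 ± 0.08 (5.16e-06). HMMR fell by 0.44 ± 0.10 (adjusted p = 0.000668) and AURKA by 0.39 ± 0.08 (0.000473). In all, 4 of 7 engine genes and 5 of 11 checkpoint, centromere and kinetochore genes fell, among them BUB1B, MAD2L1, CENPA, SPC25 and SGOL1. GTSE1 (0.34) and AURKB (0.25) were called higher. Many calls rested on single libraries: SPC25 (-0.48) was lost without siCont A or TGFb A (adjusted p of up to 0.151 over the alternatives), CCNB1 (-0.27) without siCont A or TGFb B (0.171), CCNA2 (-0.34) without siCont A or TGFb A (0.0928), TOP2A (-0.25) without siCont B or TGFb B (0.172), KIF20A (-0.33) without any one of the 4 libraries (0.105), GTSE1 without siCont A or TGFb A (0.077) and AURKB without siCont B, TGFb A or TGFb B (0.238). Without any one of the 4 libraries 11 or 12 genes were called lower and 0 or 1 higher.

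The A549 libraries labelled siKLF10 differed little from siCont in these genes. Of the 57 genes 5 (8.77%) were called lower, beside 9.96% of all genes tested, and 3 (5.26%) higher, beside 9.57%, so the shares were at or below those of all genes. HMMR fell by 0.71 ± 0.10 or 1.63-fold (adjusted p = 2.39e-05) and CDC25B rose by 0.56 ± 0.07 or 1.48-fold (1.12e-05). These were the only 2 calls kept in every alternative tried. CENPA, the centromeric histone, was called at -0.37, NCAPG, a condensin subunit, at -0.36, RACGAP1 at -0.29, PRC1, which bundles the central spindle, at -0.24, INCENP at 0.37 and MKI67 at 0.23. CENPA, NCAPG, RACGAP1 and MKI67 were lost without any one of the 4 libraries (adjusted p of up to 0.226, 0.108, 0.181 and 0.201), PRC1 without siCont A or B or siKLF10 B (0.344) and INCENP without siCont B or siKLF10 A (0.174). The lower count was 2 without siCont A, 1 without siCont B and 1 without siKLF10 B, and the higher count was 1 without siCont B or siKLF10 A.

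Under TGFβ the A549 libraries labelled siKLF10 were lower for 43 of the 57 genes (75.4%), beside 13.9% of all genes tested, and higher for 0, beside 14.4%. By edgeR 0 were higher at an unadjusted p under 0.05, and DESeq2 called 0 higher. The median was -0.53, beside 0.01 over all genes tested. Of the 57 genes 24 were at least 1.5-fold lower, a size not counted over all genes. KIF20A fell by 0.97 ± 0.11 or 1.96-fold (adjusted p = 1.56e-06), RACGAP1 by 0.86 ± 0.09 (1.78e-07), HMMR by 0.85 ± 0.10 (2.07e-06), CDC20 by 0.84 ± 0.11 (2.08e-05), PTTG1 by 0.81 ± 0.10 (2.43e-06) and CDC25C, the phosphatase that completes CDK1 activation, by 0.80 ± 0.14 (0.000162). All 5 mitotic kinases, all 5 anaphase and degradation genes and all 3 cytokinesis genes fell, as did 6 of 7 engine genes and 6 of 8 spindle genes. The engine gene that was not called was CDC25B, at -0.19 (adjusted p = 0.0745). CDK1, at -0.25, was lost without either TGFb library or without siKLF10+TGFb B (adjusted p of up to 0.236), and MKI67 was not called, at -0.19 (0.0598). Without siKLF10+TGFb A, 2 genes were called higher.

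TGFβ in A549 cells labelled siKLF10 gave the broadest fall. Against siKLF10, 46 of the 57 genes (80.7%) were called lower in siKLF10+TGFb, beside 26.8% of all genes tested, and 0 higher, beside 26.5%. By edgeR 0 were higher at an unadjusted p under 0.05, and DESeq2 called 0. The median was -0.58, beside -0.01 over all genes tested. Of the 57 genes 28 were at least 1.5-fold lower, a size not counted over all genes. CDC25B fell by 2.10 ± 0.08 or 4.28-fold (adjusted p = 9.87e-16), PTTG1 by 1.29 ± 0.10 (1.67e-10), ECT2 by 1.25 ± 0.08 (1.27e-11), NUSAP1 by 1.22 ± 0.08 (5.14e-11), KIF20A by 1.17 ± 0.11 (1.26e-08) and AURKA by 0.99 ± 0.08 (1.46e-09). CDK1 fell by 0.93 ± 0.08, CCNB2 by 0.94 ± 0.09 and CCNB1 by 0.83 ± 0.08. In all, 9 of 11 checkpoint, centromere and kinetochore genes fell, all 4 passenger complex genes and all 3 cytokinesis genes. FOXM1 was not called, at -0.19 (adjusted p = 0.0725), nor were CENPE, CENPF, CKAP2, KIF4A, KIF14, KIF18A, MELK, ASPM, SMC2 and SMC4. Without siKLF10+TGFb A, 1 gene was called higher.

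The A549 interaction was negative for 53 of the 57 genes. It was called lower for 30 (52.6%), beside 3.23% of all genes tested, and higher for 0, beside 3.26%; by edgeR 0 were higher at an unadjusted p under 0.05, and DESeq2 called 0 higher. The median was -0.48, beside -0.005 over all genes tested. PTTG1 had -0.91 ± 0.13 (adjusted p = 0.000234), CCNB2 -0.88 ± 0.125 (0.000179), CDC20 -0.86 ± 0.16 (0.00245) and KIF20A -0.84 ± 0.15 (0.00167). CCNB2 had TGFβ responses of -0.06 without siKLF10 and -0.94 with it, and CDC20 of 0.24 and -0.63. AURKB and GTSE1 were called higher with TGFβ in cells without siKLF10 and lower with it in cells labelled siKLF10. All 5 anaphase and degradation genes and all 4 passenger complex genes were called, against 1 of 11 checkpoint, centromere and kinetochore genes, a difference between roles that was not tested. Calls of CCNB1 (-0.55), PLK1 (-0.58) and MKI67 (-0.42) were lost without single libraries, with adjusted p of up to 0.0617 (siCont B or siKLF10 A), 0.102 (siCont A, TGFb A or siKLF10 A) and 0.117 (any library other than those of siKLF10+TGFb). The count of lower genes was 19 without siCont A, 17 without siCont B, 15 without TGFb A and 17 without siKLF10 A, and without siKLF10+TGFb A 1 gene was called higher.

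**Figure D3:**
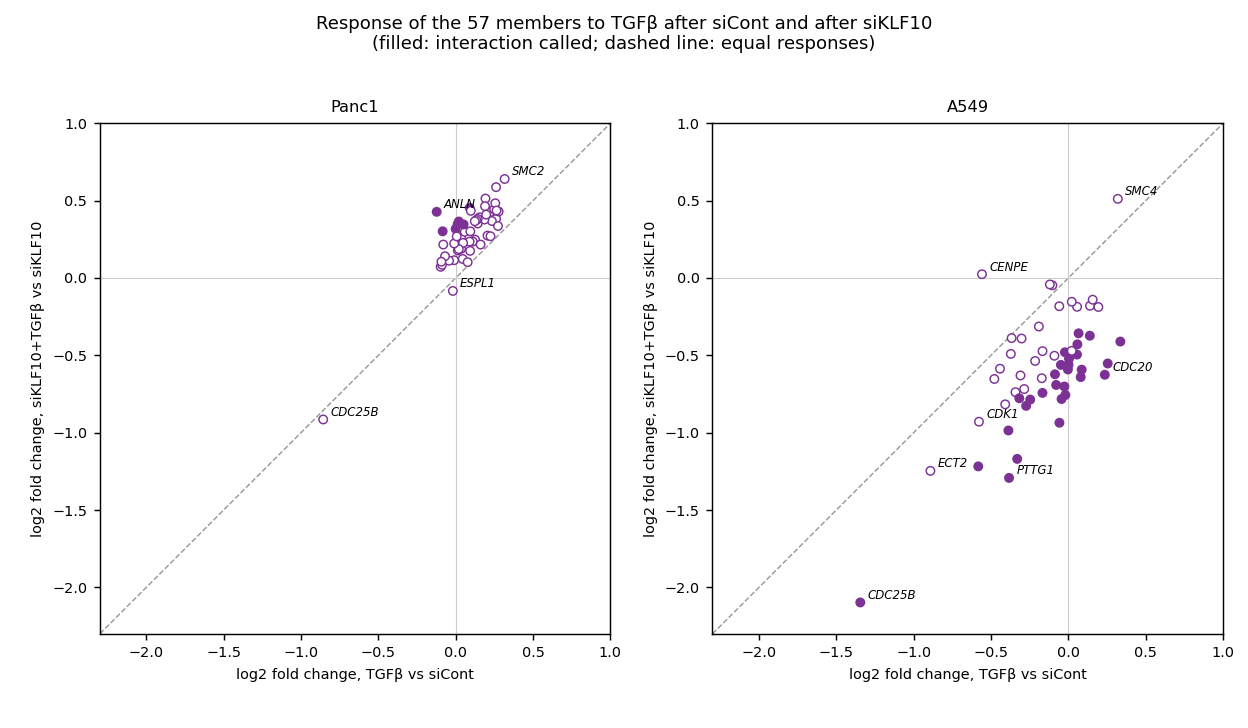
Each point is 1 of the 57 genes, with its log2 fold change for TGFb against siCont on the x axis and for siKLF10+TGFb against siKLF10 on the y axis, in Panc1 (left) and A549 (right); filled points have a called interaction and the dashed line marks equal responses. Panc1 points lie mostly above that line (55 of 57) and A549 points mostly under it (53 of 57), with CDC25B at the lower left in both lines.

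The lines were compared in a model over all 20 libraries, coded as Panc1 minus A549. In siCont 47 of the 57 genes (82.5%) were higher in Panc1, beside 39% of the 15058 genes tested, and 5 (8.77%) lower, beside 42.9%. CENPE, the kinesin that carries chromosomes to the spindle equator, was higher by 3.39 ± 0.41 (adjusted p = 4.35e-06), NDC80 by 2.80 ± 0.11 (5.47e-22), MKI67 by 2.63 ± 0.08 or 6.19-fold (3.32e-25) and SGOL1 by 2.60 ± 0.09 (4.49e-23). CDC25B was lower in Panc1 by -0.79 ± 0.07 (adjusted p = 1.49e-12), MAD2L1 by -0.40 ± 0.09, and CCNB2 and ESPL1, separase, by -0.25 each; CCNB2 was lost without A549 siCont A (0.0888), where 3 genes were called lower. Line and any technical difference between the sets of libraries cannot be told apart here. Reads in no feature were 33.6 to 36.9% in Panc1 and 57.6 to 60.1% in A549. These are shares of the gene counts, no-feature and ambiguous reads together. With offsets for transcript length and GC content CDK1 turned from 0.20 to -0.10, TOP2A from 0.19 to -0.31 and AURKB from -0.06 to 0.48.

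The response to TGFβ without siKLF10 was higher in Panc1 than in A549 for 24 of the 57 genes (42.1%), beside 17.1% of all genes tested, and lower for 0, beside 13.8%; edgeR gave 1 lower at an unadjusted p under 0.05, and DESeq2 called 0 lower. CDK1 differed by 0.92 ± 0.105 (adjusted p = 1.31e-08), in a fit over both lines where the median of all genes was 0.07. In the separate fits of the lines it rose by 0.26 in Panc1 and fell by 0.58 in A549. ECT2 differed by 0.88 ± 0.10 (adjusted p = 1.34e-08), MAD2L1 by 0.75 ± 0.13 (2.24e-05) and BUB1B by 0.73 ± 0.10 (3.26e-07). CDK1, BUB1B, MAD2L1, CENPA and SGOL1 were called higher in Panc1 and lower in A549, 38.5% of the 13 and 26.3% of the 19. They make up 8.77% of the 57, beside 1.49% of the 12510 genes tested in both lines. Among these 5, the A549 calls of CENPA were lost without any one of the 4 libraries and of SGOL1 without siCont B or TGFb A, with adjusted p of up to 0.314 and 0.244, and the Panc1 call of CENPA without siCont B or C or TGFb B (up to 0.0956). With siKLF10 the number called in these opposite directions was 35 (61.4% of the 57, beside 3.95% of the genes tested in both lines), which is 79.5% of the 44 genes higher in Panc1 and 76.1% of the 46 lower in A549, among them CCNB1, CCNA2, CDK1, AURKA, AURKB, PLK1, BUB1, KIF20A, TOP2A and MKI67.

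The siKLF10 effect without TGFβ was lower in Panc1 than in A549 for 9 of the 57 genes (15.8%), beside 8.65% of all genes tested, and higher for 0, beside 8.59%; edgeR gave 1 higher at an unadjusted p under 0.05, and DESeq2 called 0 higher. NCAPD2 differed by -0.70 ± 0.10 (adjusted p = 4.83e-06) and INCENP by -0.63 ± 0.12 (0.000563). CDC20 (-0.55) was lost without A549 siKLF10 A (0.0886) and AURKB (-0.48) without that library or A549 siCont B (up to 0.102). Without A549 siKLF10 A the lower count was 3, and without Panc1 siKLF10 A or A549 siCont B 1 gene was called higher. With the length and GC offsets 24 were called lower. HMMR, PRC1 and RACGAP1 were lower with siKLF10 in both lines, 10% of the 30 and 60% of the 5. As a share of the 57 this was 5.26%, near the 4.04% of all genes tested in both lines. CDC25B rose in both, by 0.54 in Panc1 and 0.56 in A549, and the difference of 0.00 ± 0.10 had an adjusted p of 1.

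Under TGFβ the siKLF10 effect was higher in Panc1 than in A549 for 39 of the 57 genes (68.4%), beside 7.52% of all genes tested, and lower for 0, beside 12.3%; edgeR gave 0 lower at an unadjusted p under 0.05, and DESeq2 called 0 lower. PTTG1 differed by 1.02 ± 0.12 (adjusted p = 1.87e-07), CDC25C by 1.01 ± 0.16 (1.43e-05), NDC80 by 0.93 ± 0.16 (7.85e-05) and CCNB2 by 0.87 ± 0.11 (2.7e-07). All 7 engine genes were called, although the call of FOXM1 (0.33) was lost without A549 TGFb A or siKLF10+TGFb B. The kinesin KIF20A was also called (0.52), and its call was lost without A549 siKLF10+TGFb B. Of the 13 genes lower in Panc1, 12 were lower in A549 too (92.3%, and 27.9% of the 43; 21.1% of the 57, beside 6.31% of all genes tested in both lines): CDC20, PLK1, KIF20A, HMMR, BIRC5, PRC1, NUF2, RACGAP1, CDCA3, FOXM1, GTSE1 and NCAPD2. Of the 17 higher in Panc1, 12 were lower in A549 (70.6% and 27.9%; 21.1% of the 57, beside 1.29%): CCNB2, CCNA2, CDK1, CDC25C, KIF4A, TOP2A, TPX2, NDC80, CDCA8, PTTG1, NEK2 and MELK. Without A549 siKLF10+TGFb A 1 gene was called lower.

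**Figure D4:**
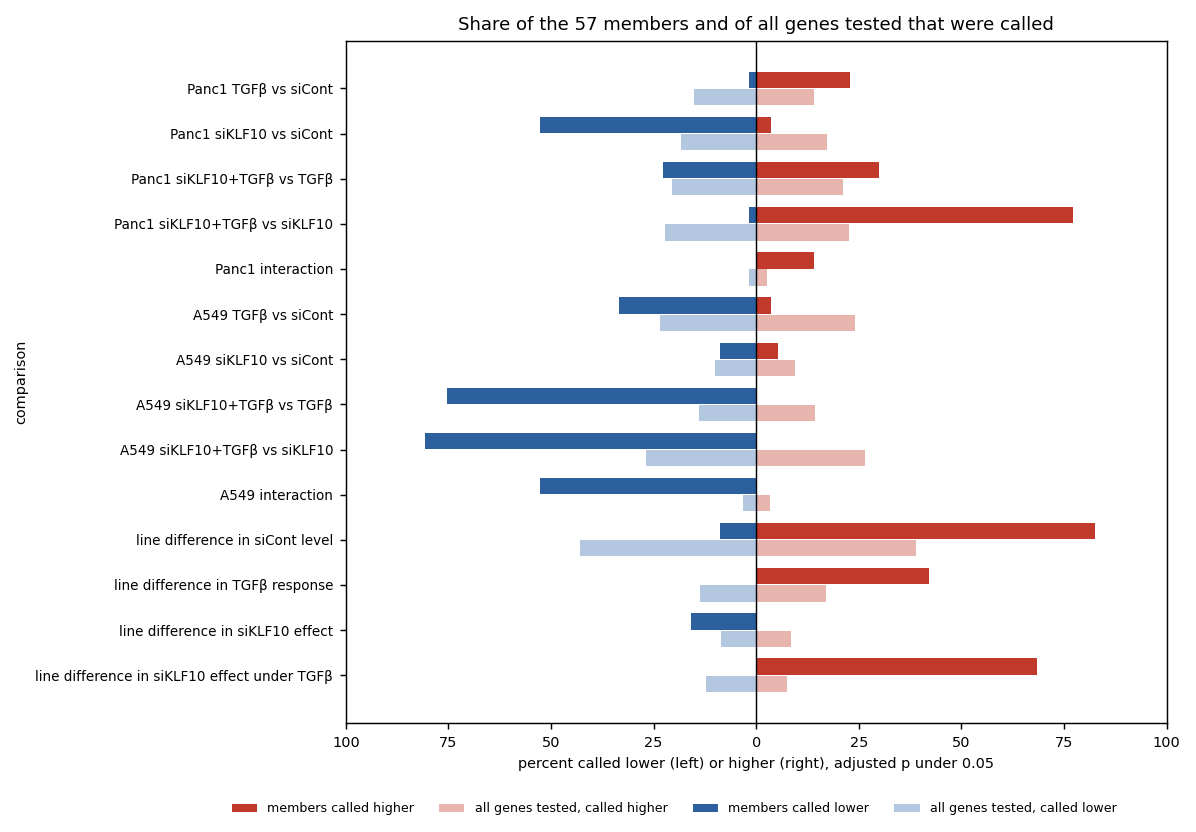
Bars give the percent of the 57 genes (dark) and of all genes tested (pale) called higher (right of 0) or lower (left of 0) in each of the 14 comparisons, at an adjusted p under 0.05; line differences are Panc1 minus A549. The longest dark bars are those for siKLF10+TGFb against siKLF10, at 77.2% higher in Panc1 and 80.7% lower in A549, and for the siCont level, at 82.5% higher in Panc1.

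Other genes of the cell cycle were read from lists of known genes that hold none of the 57. Of 72 other G2/M genes tested, 44 (61.1%) were higher and 0 lower in Panc1 for siKLF10+TGFb against siKLF10, beside 22.6% and 22.3% of all genes, with a median of 0.24. For siKLF10 against siCont there 6 (8.33%) were higher and 30 (41.7%) lower, beside 17.3% and 18.3%. In A549, 0 were higher and 54 (75%) lower for siKLF10+TGFb against TGFb, beside 14.4% and 13.9%, with CEP55, a midbody protein, at -0.94 ± 0.09. Against siKLF10, 1 (1.39%) was higher and 45 (62.5%) lower, beside 26.5% and 26.8%, with PBK, a mitotic kinase, at -1.42. Of 53 genes of G1/S and DNA replication, 33 (62.3%) were higher and 1 (1.89%) lower in Panc1 for siKLF10+TGFb against siKLF10. In the same comparison of A549, 5 (9.43%) were higher and 38 (71.7%) lower, and PCNA, the replication clamp, fell by 0.95. For siKLF10 against siCont in Panc1, 6 (11.3%) of the 53 genes were higher and 17 (32.1%) lower, beside 17.3% and 18.3%. Their median was -0.04. The G1 cyclin CCNE2 rose there by 0.85 (adjusted p = 4.61e-07), and ORC1 fell by 0.67 (3.67e-06). Of 32 cell cycle regulators tested in Panc1, 11 (34.4%) were higher and 4 (12.5%) lower for siKLF10+TGFb against siKLF10, and of 31 in A549, 9 (29%) and 8 (25.8%).

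Among 23 p53 target genes in A549, 15 (65.2%) were higher and 1 lower for TGFb against siCont, beside 24.2% and 23.5% of all genes, and 10 (43.5%) were higher and 0 lower for siKLF10 against siCont, beside 9.57% and 9.96%. For siKLF10+TGFb against TGFb, 10 (43.5%) were higher and 2 (8.7%) lower, beside 14.4% and 13.9%. Against siKLF10, siKLF10+TGFb had 12 (52.2%) higher and 4 (17.4%) lower, beside 26.5% and 26.8%. In Panc1, for siKLF10+TGFb against siKLF10, 5 (21.7%) were higher and 7 (30.4%) lower, beside 22.6% and 22.3% of all genes. For siKLF10 against siCont there, 4 (17.4%) were higher and 8 (34.8%) lower, beside 17.3% and 18.3%. Against TGFb, siKLF10+TGFb had 3 (13%) higher and 8 (34.8%) lower, beside 21.1% and 20.6%. For TGFb against siCont, 4 (17.4%) were higher and 5 (21.7%) lower, beside 14% and 15.1%. CDKN1A, the CDK inhibitor p21, known to act upstream of DREAM repression, is in both the regulator and the p53 lists. It measured 81.5 and 77.8 CPM in A549 siCont, 208 and 200 in TGFb, 210 and 187 in siKLF10 and 399 and 370 in siKLF10+TGFb. In Panc1 it measured 32.2, 28.4 and 30.5, 39.9, 44 and 39.6, 19.8, 20.2 and 23.5, and 38.4, 36 and 35.6 CPM in the same order. The A549 siKLF10+TGFb libraries were highest in CDKN1A and mostly lowest in the mitotic genes. CDKN1A rose against siCont by 1.34 in A549 siKLF10 (adjusted p = 5.14e-10) and by 1.35 in TGFb (7.84e-12), while few of the mitotic genes were called in siKLF10, and its interaction was -0.43 (0.0234). Its part in these results was not tested. MYBL2, the partner of MuvB, measured 117 and 118 CPM in A549 siCont, 142 and 135 in TGFb, 116 and 107 in siKLF10 and 112 and 100 in siKLF10+TGFb. In Panc1 MYBL2 measured 130, 128 and 125, 135, 141 and 135, 141, 139 and 141, and 167, 140 and 142 CPM, so that siKLF10 lay above siCont.

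Transcript length moved with the A549 results. Over the 56 genes with a length, the Spearman correlation between the length of the longest coding transcript and the log2 fold change of siKLF10+TGFb against TGFb was 0.59 in A549, beside 0.22 over all genes, and 0.07 in Panc1. Of the 28 shorter genes 28 were called lower (median -0.66), and of the 28 longer ones 15 were (median -0.33). Against siKLF10 the numbers were 27 (median -0.67) and 18 (median -0.45). In the A549 interaction the correlation with GC content was -0.72, beside -0.19 over all genes. The 2 libraries of an A549 group also differed by length and by GC content. Length correlated with the log2 ratio of library B to A at 0.38 in siCont, -0.18 in TGFb, 0.47 in siKLF10 and 0.52 in siKLF10+TGFb. For GC content the values were -0.59, 0.15, -0.52 and -0.66 in the same order. CENPE, with the largest such ratio in the last group, measured 14.7 CPM in A and 43.1 in B, and ASPM 90.9 and 153. These correlations are across genes that share libraries. Offsets for transcript length and GC content, added after seeing the data, covered only the 56 genes with a length. With them 46 were called lower in A549 for siKLF10+TGFb against TGFb (median -0.53), 49 against siKLF10 and 38 in the interaction.

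**Figure D5:**
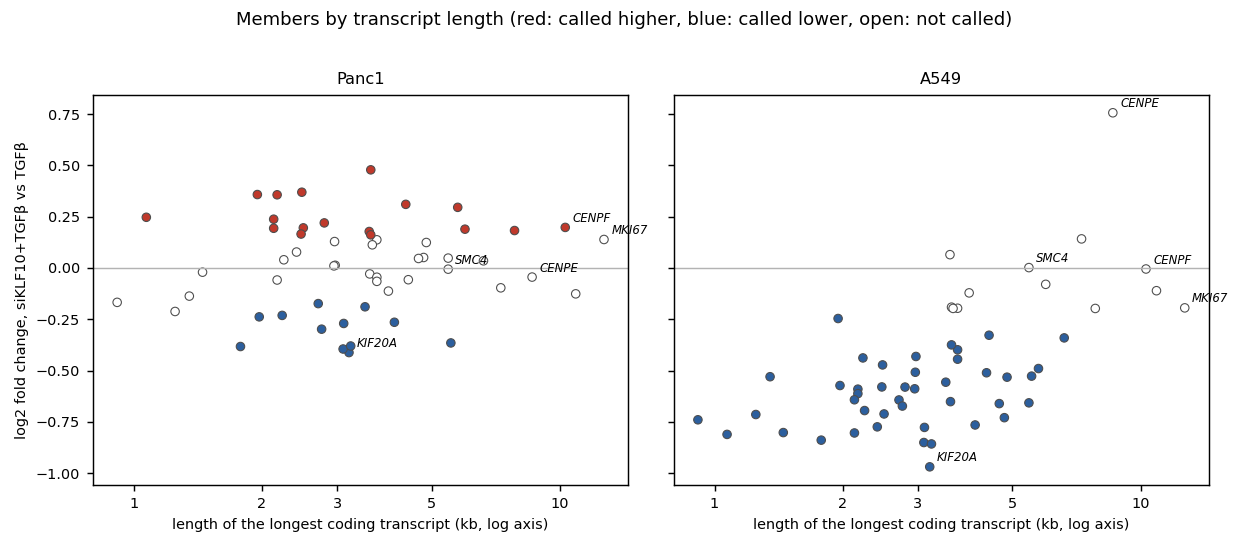
Each point is 1 of 56 genes, with the length of its longest coding transcript in kb on a log axis and its log2 fold change for siKLF10+TGFb against TGFb, in Panc1 and A549 (red called higher, blue called lower, open not called). A549 genes with short transcripts lie lowest and most open points there belong to long ones (correlation 0.59), while Panc1 shows a correlation of 0.07.

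The responses are set side by side here for genes with and without TTTGAA in the promoter window, with no test between them. For siKLF10+TGFb against siKLF10 in Panc1, 26 of 35 genes with the letters and 12 of 14 without were called higher, with medians of 0.31 and 0.36. In A549 28 of 35 and 11 of 14 were called lower, with medians of -0.54 and -0.67. CCNB1, whose printed window holds no TTTGAA, fell there by 0.83, beside 0.94 for CCNB2, which holds it.

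CENPE was not called in any of the 10 comparisons inside a line, and its A549 libraries spread from 14 to 43.1 CPM. CDC25B was called in 8 of the 10, more than any other of the 57. Of the 57 genes 13 overlap another counted gene, among them CCNA2, CDC25C, PLK1, BUB1B, KIF20A, ANLN, FOXM1, SMC4 and NCAPD2. These overlaps are of whole gene spans, introns included. The library kit marks strand, but whether the reads were counted by strand is not known here. Reads of such pairs may therefore be left out as ambiguous or counted for the wrong gene. PTTG1 has near-identical copies elsewhere in the genome, and its values are uncertain for that reason.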

How the data were processed

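Messenger RNA of 20 libraries was sequenced, and the gene counts deposited by the authors are whole reads per gene, not normalized. TopHat, Bowtie2, HTSeq 0.6.0, DESeq2 and the hg19 build are named per the submitters' processing notes, without their settings. The kit was directional per the labels' protocols, with the strandedness used in counting not given in the sources used here. The 5 summary lines of each file, such as reads in no feature, were left out of library sizes. Reads in no feature came to 33.6 to 60.1% of the gene counts, no-feature and ambiguous reads together. From the counts, edgeR 4.0.16 (R 4.3.3, limma 3.58.1) fitted Panc1, A549 and both lines together, with residual degrees of freedom of 8, 4 and 12, TMM scaling, quasi-likelihood tests and Benjamini-Hochberg adjustment over all genes kept by filterByExpr (minimum count 10, minimum total 15). A call means an adjusted p under 0.05. SE stands for the standard error of a log2 fold change. The alternatives were total-count and median-of-ratios scaling, no low-count filter, DESeq2 1.42.0, a fit of only the groups compared, a replicate block, each library left out and, added after seeing the data, length and GC offsets. The procedure was tested on simulated data.

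The genes and lists were chosen with earlier results of these data known. Values in every library are given for 15 genes set by name. Beyond these, up to 6 called genes with the largest rise and fall were eligible in each comparison inside a line, and up to 4 each way in interactions and line differences. Genes named for losing a call, or for a count of 5 or fewer, fall outside this rule and were chosen after their values were seen. Library pairs of a group differed by more than sampling noise, and none was counted as a duplicate. Chi-square per degree of freedom, over genes averaging at least 20 counts, was 2.06 to 12.5 in Panc1 pairs. In A549 it was 11.4 for siKLF10+TGFb, beside 2.57 for siCont, 2.22 for TGFb and 2.97 for siKLF10. Depth was 6846761 to 19070551 counts per library, so 3 counts, the limit a count of 0 allows, came to 0.157 to 0.438 CPM, counting error only.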

Additional observations from a re-analysis of the deposited data

Results flagged for a closer look

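The following differences between effects passed the test of the difference itself and are given as values. In Panc1, the TGFβ response with siKLF10 exceeded that without it by 0.55 for ANLN, 0.39 for AURKA, 0.36 for CCNA2 and 0.34 for CDCA8 on the log2 scale. In A549 the same difference was -0.91 for PTTG1, -0.88 for CCNB2, -0.86 for CDC20 and -0.84 for KIF20A. Between the lines, coded as Panc1 minus A549, the TGFβ response without siKLF10 differed by 0.92 for CDK1, 0.88 for ECT2, 0.75 for MAD2L1 and 0.73 for BUB1B. The siKLF10 effect without TGFβ differed by -0.70 for NCAPD2, -0.63 for INCENP, -0.55 for CDC20 and -0.48 for AURKB. Under TGFβ it differed by 1.02 for PTTG1, 1.01 for CDC25C, 0.93 for NDC80 and 0.87 for CCNB2. The line differences of the siKLF10 effect without TGFβ rest on A549 libraries in which KLF10 RNA differed from siCont by -0.05. Those under TGFβ rest on A549 libraries in which KLF10 RNA differed from TGFb by -0.29.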

How the results depend on the processing

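Counts below are of the 57 genes, or of 56 for the length and GC offsets. Leaving out single libraries gave 8 to 12 higher for TGFb against siCont in Panc1, 10 to 19 higher for siKLF10+TGFb against TGFb and 3 to 19 higher for the interaction. In A549 it gave 0 to 1 higher and 11 to 12 lower for TGFb against siCont, 1 to 2 higher and 1 to 4 lower for siKLF10 against siCont, 0 to 2 higher for siKLF10+TGFb against TGFb, 0 to 1 higher against siKLF10, and 0 to 1 higher and 15 to 37 lower for the interaction. For line differences it gave 3 to 5 lower for the siCont level, 0 to 1 higher and 3 to 11 lower for the siKLF10 effect, and 0 to 1 lower under TGFβ. Steadier under left-out libraries were the lower counts for siKLF10 in Panc1 (27 to 34) and for siKLF10+TGFb in A549 (39 to 47 against TGFb, 42 to 48 against siKLF10), and the higher count for siKLF10+TGFb against siKLF10 in Panc1 (42 to 44). Total-count scaling gave 5 higher for siKLF10 against siCont, 2 lower for siKLF10+TGFb against siKLF10 and 2 higher for the interaction in Panc1, 1 higher for TGFb against siCont in A549 and 1 higher for the line difference in siKLF10 effect. DESeq2 gave 1 higher for TGFb and 3 lower for siKLF10 in A549, and a fit of only the groups compared gave 6 and 11. Without the low-count filter, line differences had 2 lower for the siCont level, 1 for the TGFβ response and 1 for the siKLF10 effect under TGFβ. Length and GC offsets, chosen after seeing the data, gave 5 lower for TGFb and 21 lower for siKLF10+TGFb against TGFb in Panc1, 21 higher for its interaction, 5 higher for TGFb, 1 higher for siKLF10 and 1 higher for siKLF10+TGFb against siKLF10 in A549, and 24 lower for the line difference in siKLF10 effect. They reversed the siCont line differences of CDK1 (-0.10), TOP2A (-0.31) and AURKB (0.48). Nothing in the labels ties libraries of a letter together, so the letters were not used as pairs in the main fits. Same-letter pairs, after centring each group, correlated at -0.42 to 0.62 in Panc1 and at -0.02 to 0.24 in A549. Above 0.1 were 3 of 18 pairs in Panc1 and 6 of 12 in A549. With 2 libraries per A549 group, each A pair repeats the value of its B pair. Whether libraries of a letter share an origin was not tested. Libraries B and A of A549 differed by transcript length, and by GC content, in the same direction in siCont, siKLF10 and siKLF10+TGFb. The replicate block gave 4 higher for TGFb against siCont and 1 higher for siKLF10+TGFb against siKLF10 in A549. The cause of these shifts was not tested. The 2 libraries per group in A549 limit the precision of its comparisons.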
